A study of Mus musculus with 6 samples.

Results

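Gulo, Hsd17b14, Msrb2 and Zfp286 are 4 mouse genes whose normalised read counts in distal colon were higher in all 3 libraries labelled Otud1-/- than in all 3 libraries labelled wild type. They were chosen by that separation of their 6 values from the 21374 genes of the deposited table, so their differences between the labels are given as a description, without a test. Of the 21281 genes tested, 2770 (13.0%) had the same separation, and the 4 genes are therefore a selection from a large group. A normalised read count is the number of reads of a gene divided by the size factor of its library.

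The libraries were made from male C57BL/6 mice given the colon carcinogen azoxymethane at 6 weeks of age (day 0). Colitis was then induced 3 times with 1.5% dextran sulfate sodium, a compound toxic to the epithelium, for 4 days each, with 14 days on water after each round. On day 81, at 18 weeks of age, tumours were cut away from the distal colon and total RNA of the neighbouring tissue was sequenced. One group of 3 libraries was labelled Otud1-/- (below, KO-labelled) and the other group of 3 was labelled wild type (WT-labelled). Both groups carried the carcinogen and colitis treatment, and no untreated colon was analysed here. The labels do not give the deleted part of Otud1, nor whether each library is a separate animal, and p-values therefore refer to variation among libraries that could be technical in part.

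The genes encode proteins with unrelated roles. Gulo (L-gulonolactone oxidase) catalyses the last step of vitamin C synthesis, which in mice takes place mainly in the liver and which humans have lost. Hsd17b14 is a short-chain dehydrogenase that was named for the oxidation of the steroid estradiol, and the human enzyme also oxidises the sugar L-fucose. Msrb2 is a mitochondrial reductase that repairs the R form of oxidised methionine in proteins, with thioredoxin as the electron donor. Zfp286 belongs to the large family of zinc finger genes named Zfp, many of whose proteins bind DNA and recruit the corepressor Trim28 through a KRAB domain. Otud1, the targeted gene, encodes a deubiquitinase, an enzyme that removes ubiquitin chains from proteins, and lies next to Msrb2 on chromosome 2.

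Libraries held 15300937 to 19406407 reads assigned to genes. On the first principal component of the log2 values, which took 38.8% of the variance, the KO-labelled library 1 (-83.3) and the WT-labelled library 1 (86.5) stood apart from the other KO-labelled libraries (-28.2 and -22.7) and the other WT-labelled libraries (22.0 and 25.8). With limma on log2(normalised read count + 1), with p-values adjusted over the whole table by Benjamini-Hochberg, 60 genes (0.282%) were called higher and 142 (0.667%) lower in KO-labelled libraries at an adjusted p under 0.05. At an unadjusted limma p under 0.05 there were 4143 genes (19.5%), the share against which such counts below are to be read. The count tests on recovered reads called 0.370% of genes in either direction with edgeR and 6.61% with DESeq2. All 4 genes were among the 60 that limma called higher, which follows from the same values that chose them and is no separate result. Among the 60, Gulo had the largest log2 difference, Hsd17b14 the 3rd, Zfp286 the 5th and Msrb2 the 14th. These ranks are for a pseudocount of 1, and the difference of Hsd17b14 was 4.72 with 0.1 and 1.83 with 5.

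The targeted gene went against its label. Otud1 (ENSMUSG00000043415.5, chromosome 2, 19657752 to 19660583 on the plus strand of GRCm38, a single exon of 2832 bases) had 165, 133 and 206 reads in KO-labelled libraries 1, 2 and 3, against 105, 48 and 48 reads in WT-labelled libraries 1, 2 and 3. Its normalised read counts were 141, 150 and 208 in KO-labelled libraries and 111, 45.1 and 48.9 in WT-labelled libraries. The groups did not overlap, although the WT-labelled library 1 came close to the lowest KO-labelled one. The mean was 166 ± 36.5 in KO-labelled libraries and 68.3 ± 36.8 in WT-labelled libraries (SD, n = 3 each). The log2 difference of 1.37 (SE 0.35) did not pass the limma test (adjusted p = 0.0934), and the p of an exact permutation test (two-sided) was 0.1, its lower bound for groups of 3. Without both libraries numbered 1 the log2 difference was 1.89, with a limma adjusted p of 0.00495. That fit left out the WT-labelled library nearest to the KO-labelled values and kept 2 libraries per label. In 15 of 17 alternatives Otud1 stayed uncalled. On leaving out 1 library, its limma adjusted p ran from 0.0694 to 0.258. A deletion that leaves these reads in place and an exchange of the labels cannot be told apart here, and an exchange would turn every direction below, which is that of the labels.

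**Figure D1:**
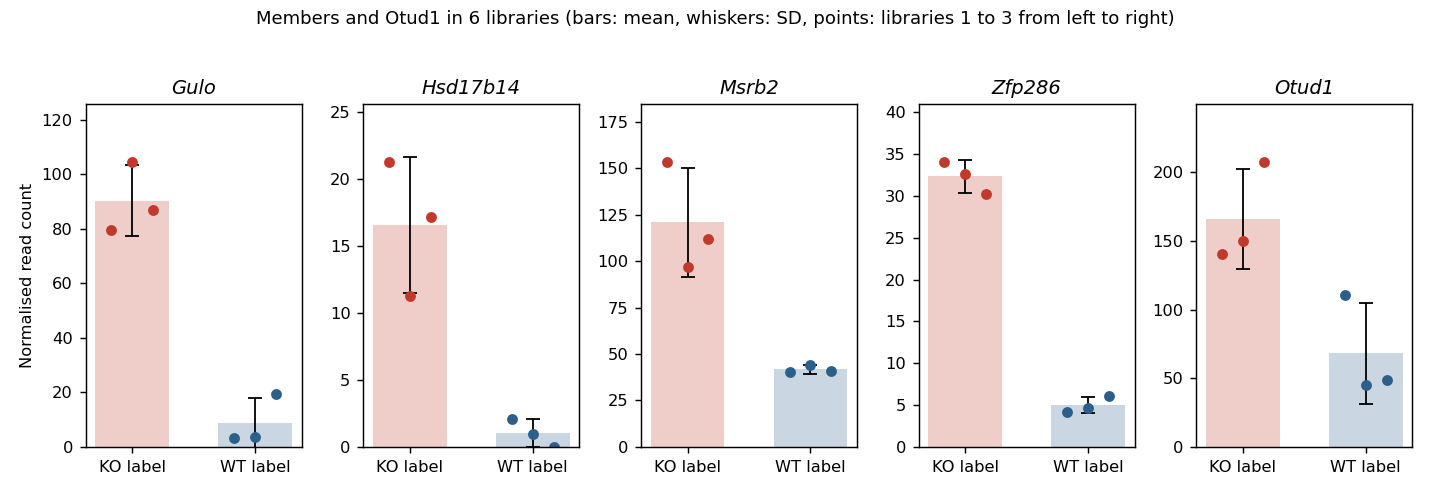
Normalised read counts of Gulo, Hsd17b14, Msrb2, Zfp286 and Otud1, with KO-labelled libraries left of WT-labelled ones (points: libraries 1, 2 and 3 from left to right; bars: means; whiskers: SD, n = 3). In every panel the 3 KO-labelled points lie above the 3 WT-labelled points, and for Otud1 the gap is narrow (141 against 111).

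Gulo (ENSMUSG00000034450.8, chromosome 14, 65986786 to 66009207 on the minus strand, 12 exon blocks) was read in every library but rarely in the WT-labelled ones. It had 93, 93 and 86 reads in KO-labelled libraries and 3, 4 and 19 reads in WT-labelled libraries. In normalised read counts these were 79.4, 105 and 86.8 in KO-labelled libraries against 3.16, 3.76 and 19.4 in WT-labelled libraries. The KO-labelled libraries lay close together, while the WT-labelled library 3 stood above the other WT-labelled libraries and carried most of that group's reads. Means were 90.3 ± 13.0 in KO-labelled libraries and 8.77 ± 9.19 in WT-labelled libraries (SD, n = 3 each). The difference was 3.62 (SE 0.58) on the log2(value + 1) scale, and 4.35 without the WT-labelled library 3.

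Summed over the libraries, Gulo had 272 reads in the KO-labelled group (95% Poisson interval 241 to 306) and 26 in the WT-labelled group (17 to 38.1). The ratio of its read rates was 10.3 (6.85 to 16). These intervals cover counting error only, and reads without molecular identifiers are not independent molecules. The spread among the WT-labelled libraries was 9.59 times the variance that counting alone gives, against 1.85 times among the KO-labelled libraries. The WT-labelled figure rests on library 3, with 19 of the 26 reads.

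Hsd17b14 (ENSMUSG00000030825.19, chromosome 7, 45554893 to 45567752 on the plus strand, 13 exon blocks) had the fewest reads of the 4 genes. Reads numbered 25, 10 and 17 in KO-labelled libraries and 2, 1 and 0 in WT-labelled libraries. The normalised read counts were 21.3, 11.2 and 17.2 in KO-labelled libraries and 2.11, 0.940 and 0 in WT-labelled libraries. The groups did not overlap, but the WT-labelled values rest on 3 reads in all, and the fold of this gene had the widest counting interval of the 4.

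Hsd17b14 averaged 16.6 ± 5.07 in KO-labelled libraries and 1.02 ± 1.06 in WT-labelled libraries (SD, n = 3 each), a log2(value + 1) difference of 3.23 (SE 0.60). In all, 52 reads fell on the gene in the KO-labelled group (38.8 to 68.2) and 3 in the WT-labelled group (0.619 to 8.77). The ratio of the read rates was 17, with a counting interval of 5.50 to 85.1. The log2 difference depended on the pseudocount, being 4.72 with 0.1 and 1.83 with 5 in place of 1. The spread within each group was near that of counting alone (1.51 times its variance in KO-labelled and 1.07 times in WT-labelled libraries).

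Msrb2 (ENSMUSG00000023094.14, chromosome 2, 19371440 to 19394976 on the plus strand, 7 exon blocks) was the best covered of the 4 and had the smallest fold. It had 180, 86 and 111 reads in KO-labelled libraries and 38, 47 and 40 reads in WT-labelled libraries. Its normalised read counts were 154, 96.7 and 112 in KO-labelled libraries and 40.1, 44.2 and 40.8 in WT-labelled libraries. The WT-labelled libraries were nearly equal, and the spread lay in the KO-labelled group, where library 1 was high.

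Means of Msrb2 were 121 ± 29.4 in KO-labelled libraries and 41.7 ± 2.20 in WT-labelled libraries (SD, n = 3 each), a log2(value + 1) difference of 1.49 (SE 0.26). The ratio of the read rates was 2.96 (counting interval 2.41 to 3.65), from 377 reads in the KO-labelled group and 125 in the WT-labelled group. Within the KO-labelled group the spread was 7.40 times the counting variance, and within the WT-labelled group 0.119 times.

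Zfp286 (ENSMUSG00000047342.17, chromosome 11, 62752577 to 62789462 on the minus strand, 10 exon blocks) had similar values within each label. It had 40, 29 and 30 reads in KO-labelled libraries and 4, 5 and 6 reads in WT-labelled libraries. Its normalised read counts were 34.1, 32.6 and 30.3 in KO-labelled libraries and 4.22, 4.70 and 6.12 in WT-labelled libraries. No library stood apart in either group, and the lowest KO-labelled value was 4.95 times the highest WT-labelled one.

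Zfp286 averaged 32.3 ± 1.95 in KO-labelled libraries and 5.01 ± 0.987 in WT-labelled libraries (SD, n = 3 each). The log2(value + 1) difference was 2.48 (SE 0.37), and the ratio of the read rates 6.47 (counting interval 3.74 to 12), from 99 and 15 reads. An annotated antisense gene, Zfp286os, lies within Zfp286 on the opposite strand (62761236 to 62765554). Its mean was 12.2 in KO-labelled and 12.7 in WT-labelled libraries. The annotated genes Gm27194, Gm10428 and Gm24151 also overlap Zfp286 on the opposite strand, and are not in the deposited table. Whether reads were counted by strand is not given in the sources used here. Reads of Zfp286 and of the genes that overlap it therefore cannot be assigned with certainty. Gulo, Hsd17b14 and Msrb2 overlapped no other annotated gene.

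The groups also stayed apart under the other scalings. The genes were chosen for this separation, so the ratios describe its margin and are no separate support. The lowest KO-labelled value over the highest WT-labelled value was 4.10 for Gulo, 5.33 for Hsd17b14, 2.19 for Msrb2 and 4.95 for Zfp286 with the deposited values. After scaling to total reads these ratios were 5.12, 5.88, 2.32 and 5.89, and after quantile normalisation 3.67, 3.78, 1.98 and 4.18, in the same order of genes. For comparison with the margin of the rule, among 12105 protein-coding genes with a mean of at least 50 the closest genes inside it were Tmem47 (1.000156) and Pdrg1 (1.000266), and the closest outside it were Smad6 (0.999856) and Slc39a13 (0.999792). Leaving out both libraries numbered 1 gave log2 differences of 3.29 for Gulo, 1.27 for Msrb2 and 2.35 for Zfp286. Hsd17b14 then fell below the filter on low values.

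Levels of different genes can be compared per length, in reads per kilobase of exon scaled to the reads of the library (RPKM). In KO-labelled libraries the order was Msrb2 (5.42 ± 1.60), Gulo (2.43 ± 0.22), Hsd17b14 (0.502 ± 0.176) and Zfp286 (0.248 ± 0.0235), with no overlap between neighbours in that order (SD, n = 3). In WT-labelled libraries it was Msrb2 (1.61 ± 0.133), Gulo (0.202 ± 0.207), Zfp286 (0.0332 ± 0.00586) and Hsd17b14 (0.0265 ± 0.0272), and the last pair overlapped. These were low to middling levels: in mean normalised read count over all 6 libraries, Gulo exceeded 38.1% of the tested genes, Hsd17b14 20.6%, Msrb2 43.2% and Zfp286 28.7%.

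Msrb2 and Otud1 lie on the same strand of chromosome 2, with 262.775 kb between the end of Msrb2 and the start of Otud1. RefSeq sequences of the start regions (250 bases before to 50 after each start, GRCm38.p6) are shown for this pair, because both genes were higher in KO-labelled libraries and neighbour each other. Both are read 5′ to 3′ on the plus strand, Msrb2 at chr2:19371386-19371685 and Otud1 at chr2:19657481-19657780. The RefSeq start used lies 196 bases downstream of the annotated gene start given above for Msrb2, and 21 bases upstream of it for Otud1. Capitals mark matches to any of 5 motifs, searched on both strands.
Msrb2: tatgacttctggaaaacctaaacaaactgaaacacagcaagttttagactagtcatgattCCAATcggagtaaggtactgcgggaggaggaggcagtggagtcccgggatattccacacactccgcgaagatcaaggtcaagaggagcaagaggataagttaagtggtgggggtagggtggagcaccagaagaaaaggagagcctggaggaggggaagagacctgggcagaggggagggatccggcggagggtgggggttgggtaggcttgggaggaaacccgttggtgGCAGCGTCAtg
Otud1: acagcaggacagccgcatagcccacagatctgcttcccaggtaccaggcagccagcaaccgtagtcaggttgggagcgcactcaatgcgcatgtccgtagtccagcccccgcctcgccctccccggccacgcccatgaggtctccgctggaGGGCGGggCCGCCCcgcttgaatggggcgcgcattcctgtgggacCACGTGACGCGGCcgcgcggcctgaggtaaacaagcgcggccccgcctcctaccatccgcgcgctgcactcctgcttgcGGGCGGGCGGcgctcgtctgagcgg

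The 2 start regions differed in composition and in motifs. GC content was 54.7% for Msrb2 and 70.3% for Otud1, against a median of 52.7% over 32851 promoters of the same length. GGGCGG, the core of the GC box bound by Sp factors, matched Otud1 4 times, in 2 cases overlapping each other, and did not match Msrb2. It occurs in 35.7% of all promoters. CCAAT, bound by the factor NF-Y, matched Msrb2 once and Otud1 not at all (37.4% of promoters). CACGTG, the E-box palindrome, matched only Otud1 (7.15%), and TATAAA matched neither (13.6%). TGACNNNGC, the antioxidant response element core, matched each gene once (12.4%), and in Otud1 the match overlapped CACGTG. A match describes the letters and shows no binding.

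Msrb2 and Otud1 were both higher in the 3 KO-labelled libraries, but did not peak in the same library of a label. In the KO-labelled group, Msrb2 was highest in library 1 (154) and Otud1 in library 3 (208). In the WT-labelled group, Msrb2 was level across libraries while Otud1 was highest in library 1 (111). Per length, the ratio of Msrb2 to Otud1 was 2.24, 1.33 and 1.11 in KO-labelled libraries 1, 2 and 3, and 0.744, 2.01 and 1.71 in WT-labelled libraries 1, 2 and 3. The groups overlapped in this ratio.

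Of the 20 other tested genes that start within 2 Mb of the start of Otud1, limma called 0 (1 at an unadjusted p under 0.05), edgeR 0 of the 13 it tested and DESeq2 0. The all-gene share called by limma was 0.949%, and the share at an unadjusted p under 0.05 was 19.5%. The log2 differences ran from -0.87 to 1.04, with 14 positive, 6 negative and a median of 0.27, against 0.02 over all tested genes. This lean depended on genes with few reads. Among the 13 of them with a mean of at least 10, 7 differences were positive and 6 negative. Their median was 0.03, against -0.002 over all genes that passed this filter. After quantile normalisation the median over the 20 was 0.13. The KO-labelled libraries lay above all WT-labelled ones for 1 of the 20 and below them for 1, against 13.0% and 13.3% of all tested genes. No tested gene lay between Msrb2 and Otud1.

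On the Msrb2 side the closest tested protein-coding genes were Armc3, which encodes an armadillo repeat protein (log2 difference -0.87, limma, adjusted p = 0.379), 4930426L09Rik (0.62, adjusted p = 0.730, at most 8 reads in a library) and the lipid kinase gene Pip4k2a (-0.24, adjusted p = 0.606). Armc3 had 10.2, 13.5 and 29.3 normalised reads in KO-labelled libraries and 40.1, 16 and 41.8 in WT-labelled libraries, with overlap. On the Otud1 side they were Etl4 (-0.37, adjusted p = 0.204), Arhgap21 (-0.25, adjusted p = 0.510) and Enkur (0.90, adjusted p = 0.411). The windows of the other 3 genes also held no limma call. Within 500 kb of the start of Gulo there were 13 tested genes (4 at an unadjusted p under 0.05, median log2 difference 0.16), around Hsd17b14 65 (13, median -0.07) and around Zfp286 27 (1, median -0.06), against 19.5% of all tested genes at that p. Of these, edgeR called 0 of 85 and DESeq2 2 of 105, against 0.370% and 6.61% of all genes.

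**Figure D2:**
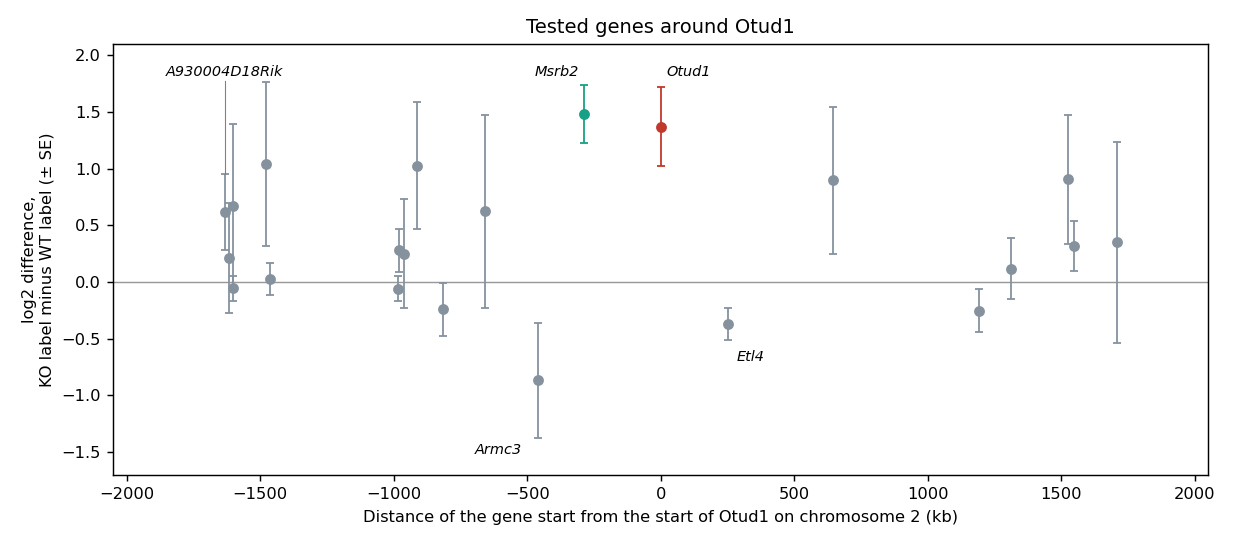
KO-labelled minus WT-labelled log2 differences, with limma's standard errors, of tested genes by distance from the start of Otud1. Msrb2 (1.49) and Otud1 (1.37) stand above the neighbours, which lie between -0.87 and 1.04.

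The enzymes that work with Msrb2 were read next. Of 11 tested genes for methionine sulfoxide reductases, thioredoxins, thioredoxin reductases and the methionine-oxidising Mical enzymes, 1 was called higher in KO-labelled libraries and 0 lower, with 3 positive and 8 negative differences and a median of -0.11. The median is 0.10 with scaling to total reads and 0.02 with quantile normalisation, so its sign depends on the scaling. Scaling to total reads moved the median of all tested genes to 0.22. At an unadjusted limma p under 0.05 there were 4 of the 11, against 19.5% of all tested genes. Calls numbered 0 with edgeR and 3 with DESeq2, against 0.370% and 6.61% of all genes.

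The gene called by limma was Msrb3, the reductase of the same chemistry found in the endoplasmic reticulum. Msrb3 had 911, 910 and 620 normalised reads in KO-labelled libraries and 284, 444 and 370 in WT-labelled libraries, without overlap. The log2 difference was 1.15 (SE 0.21, limma, adjusted p = 0.0457). The call was lost in 11 of 17 alternatives, among them edgeR (adjusted p = 0.0694), quantile normalisation (adjusted p = 0.0519), and when any WT-labelled library or KO-labelled library 1 or 2 was left out. The selenoprotein Msrb1 (log2 difference -0.01, adjusted p = 0.974) and Msra, which reduces the S form of the oxidised residue (-0.20, adjusted p = 0.518), were not called.

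Per length, Msrb1 was the most abundant reductase at 48.3 ± 5.33 in KO-labelled and 42.3 ± 5.46 in WT-labelled libraries. Msrb3 was at 12.3 ± 2.64 in KO-labelled and 4.8 ± 1.16 in WT-labelled libraries, and Msra at 6.38 ± 0.902 in KO-labelled and 6.33 ± 0.403 in WT-labelled libraries. Msrb3 lay above Msra in KO-labelled and below it in WT-labelled libraries, without overlap in either. Msrb2 was the lowest of the 4 in both groups (5.42 and 1.61), but overlapped Msra in KO-labelled libraries. The electron donor Txn1, cytosolic thioredoxin, had 11100, 18366 and 15801 normalised reads in KO-labelled libraries and 26589, 20635 and 24590 in WT-labelled libraries. Its log2 difference was -0.69 (adjusted p = 0.111 with limma and 0.0303 with DESeq2). Txn2 and Txnrd2, its mitochondrial counterparts, which serve the compartment of Msrb2, differed by -0.11 (adjusted p = 0.663) and -0.02 (adjusted p = 0.962).

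**Figure D3:**
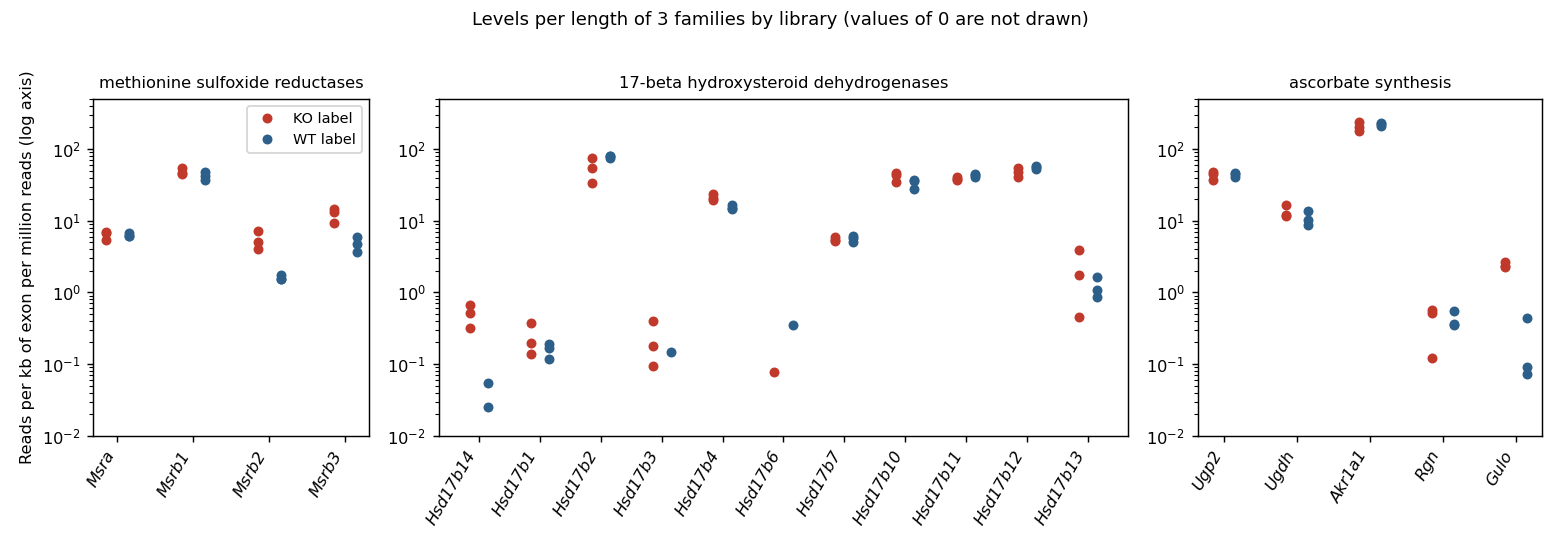
Levels in RPKM in each library, on a log axis, for genes of the methionine sulfoxide reductase, 17-beta hydroxysteroid dehydrogenase and ascorbate synthesis groups, with KO-labelled values left of WT-labelled ones. Msrb1, Hsd17b2 and Akr1a1 lie far above Msrb2, Hsd17b14 and Gulo in their groups, and values of 0 are not drawn.

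Of the other 13 genes for ascorbate synthesis, transport and recycling, limma called 0 (3 at an unadjusted p under 0.05, against 19.5% of all tested genes), edgeR 0 and DESeq2 0. Their differences were positive for 5 and negative for 8, with a median of -0.23. The median was -0.03 with scaling to total reads, where that of all tested genes was 0.22, and -0.05 after quantile normalisation. Of the enzymes upstream of Gulo, Akr1a1, which makes L-gulonate, stood at 205 ± 28.3 per length in KO-labelled libraries and 222 ± 13.5 in WT-labelled libraries. Rgn, the lactonase that makes the substrate of Gulo, stood at only 0.404 ± 0.246 in KO-labelled and 0.417 ± 0.111 in WT-labelled libraries. Gulo, at 2.43 in KO-labelled libraries, was thus above Rgn there, and at 0.202 in WT-labelled libraries its 3 values overlapped those of Rgn.

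The transporter gene Slc2a1, which carries dehydroascorbate as well as glucose, differed by -0.54 (limma, adjusted p = 0.282). Slc23a1 and Slc23a2, the sodium-coupled ascorbate transporters, differed by 0.04 (adjusted p = 0.970) and 0.08 (adjusted p = 0.844). Of 13 tested dioxygenases that use ascorbate (Bbox1 was not in the table), limma called 0 (5 at an unadjusted p under 0.05), edgeR 0 and DESeq2 2. Their median was -0.13, and 0.08 with scaling to total reads. Tmlhe, the first enzyme of carnitine synthesis, came closest at -0.66 (adjusted p = 0.0783). Its normalised read counts of 223, 198 and 220 in KO-labelled libraries lay below the 380, 334 and 305 of WT-labelled libraries.

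Hsd17b14 was compared with 14 tested hydroxysteroid dehydrogenases (Hsd17b6 did not pass the filter on low values). Limma called 0 of them (4 at an unadjusted p under 0.05), as did edgeR and DESeq2, with 7 positive and 7 negative differences and a median of -0.06 (0.15 with scaling to total reads). Hsd17b2, which inactivates estradiol, had 998, 2488 and 1697 normalised reads in KO-labelled libraries and 2952, 2618 and 2947 in WT-labelled libraries (log2 difference -0.81, adjusted p = 0.227). Per length it stood at 54.2 ± 20.9 in KO-labelled and 78.1 ± 3.20 in WT-labelled libraries, far above Hsd17b14. Hsd17b1 (0.234 ± 0.120 in KO-labelled and 0.159 ± 0.0379 in WT-labelled libraries) was in the low range of Hsd17b14.

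Of 12 tested genes for steroid conversion and steroid receptors (Cyp19a1, Sts and Sult1e1 were not in the table), limma called 0 (2 at an unadjusted p under 0.05), edgeR 0 and DESeq2 0. Their median was 0.19. The estrogen receptor gene Esr1 had 258, 147 and 86.8 normalised reads in KO-labelled libraries and 40.1, 97.8 and 88.7 in WT-labelled libraries, with overlap (log2 difference 1.07, adjusted p = 0.262).

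Genes of fucose use were read because of the fucose dehydrogenase activity of the human enzyme. Of 15 tested genes for making, attaching and removing fucose, limma called 1 lower and 0 higher, 12 differences were negative, and the median was -0.30. At an unadjusted limma p under 0.05 there were 7 of the 15, against 19.5% of all tested genes. Calls numbered 0 with edgeR and 5 with DESeq2, against 0.370% and 6.61% of all genes. The same 12 to 3 split held after scaling to total reads (median -0.10) and quantile normalisation (-0.29). In 9 of the 15 all KO-labelled values lay below all WT-labelled ones, against 13.3% of all tested genes. The gene called by limma was Fuca1, the lysosomal enzyme that removes fucose from glycans. Fuca1 had 4531, 5571 and 5426 normalised reads in KO-labelled libraries and 8221, 8023 and 9097 in WT-labelled libraries (log2 difference -0.71, SE 0.13, limma, adjusted p = 0.0440). The call was lost in 12 of 17 alternatives, among them edgeR (adjusted p = 0.0669), scaling to total reads (adjusted p = 0.0519), quantile normalisation (adjusted p = 0.0995), and the omission of KO-labelled library 3 or any WT-labelled library.

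Fut8, which adds the core fucose of N-glycans, had 1808, 1369 and 2104 normalised reads in KO-labelled libraries and 3042, 2882 and 2898 in WT-labelled libraries (log2 difference -0.76, adjusted p = 0.0551). Gmds, which makes the fucose donor GDP-fucose, differed by -0.77 (adjusted p = 0.0781). Fut2, whose product fucosylates mucus and the epithelial surface, starts 93.7 kb from the start of Hsd17b14 on chromosome 7. It had 3025, 4340 and 7699 normalised reads in KO-labelled libraries and 11104, 12955 and 9554 in WT-labelled libraries, again without overlap (-1.25, adjusted p = 0.123). DESeq2 called Fut8, Gmds and Fut2 lower (adjusted p = 0.0036, 0.012 and 0.0051). The summed epithelial markers were also lower in KO-labelled libraries, and their part in this result was not tested.

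**Figure D4:**
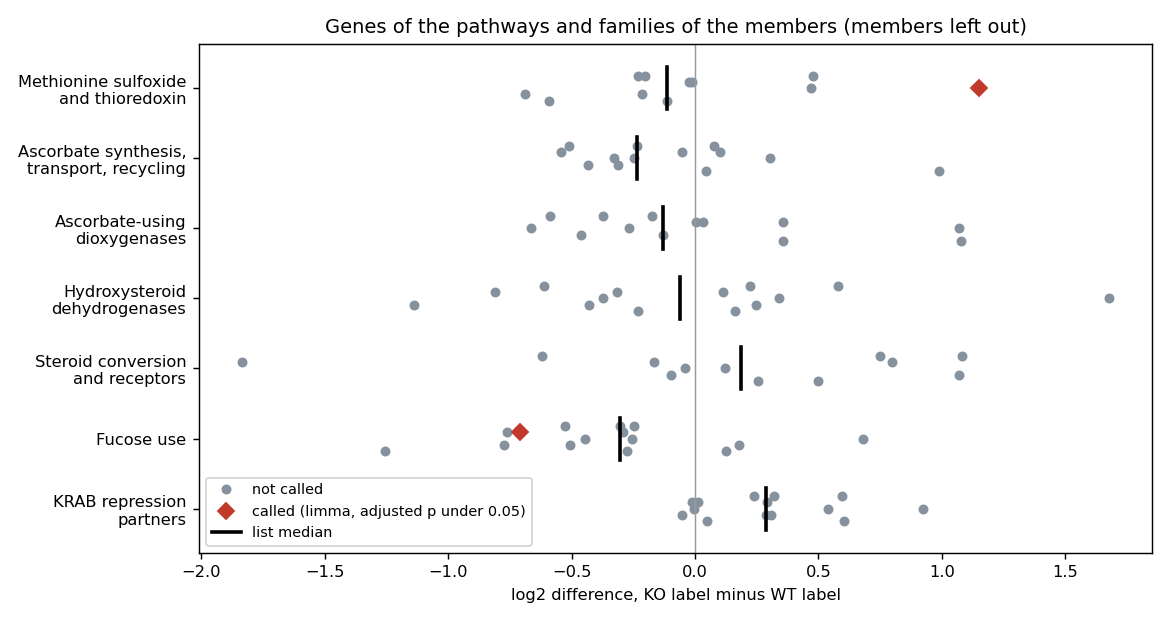
KO-labelled minus WT-labelled log2 differences (horizontal axis) of each tested gene in the 7 related lists, with a vertical bar at each list median and red diamonds for genes that limma called. Fucose use has the lowest median (-0.30) and KRAB repression the highest (0.29), while 1 gene higher (Msrb3) and 1 lower (Fuca1) passed the test.

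The corepressor genes of KRAB zinc finger proteins held 0 limma calls among 14 tested (4 at an unadjusted p under 0.05), 0 by edgeR and 2 by DESeq2. Their median was 0.29, with 11 positive and 3 negative differences. All 14 were positive after scaling to total reads, where 2 were called, and where 14926 of the 21192 genes tested were positive. After quantile normalisation all 14 were positive and 0 were called. The list median was 0.13 without KO-labelled library 1 and 0.12 without both libraries numbered 1. Uhrf1, which recruits the maintenance DNA methyltransferase, had 893, 697 and 976 normalised reads in KO-labelled libraries and 348, 513 and 496 in WT-labelled libraries (log2 difference 0.93, adjusted p = 0.0551). Cbx5, a heterochromatin protein, differed by 0.60 (adjusted p = 0.0868) and Trim28 itself by 0.32 (adjusted p = 0.271).

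The rest of the Zfp family numbered 335 tested genes. Of these, limma called 2 higher and 0 lower, against 0.949% of all tested genes called in either direction. In the family 211 differences were positive and 124 negative, and the median was 0.11. Quantile normalisation gave a median of 0.02. KO-labelled values lay above all WT-labelled ones in 55 of the 335, against 13.0% of all tested genes. Zfp651 averaged 252 ± 35.7 in KO-labelled and 124 ± 13.1 in WT-labelled libraries (log2 difference 1.01, SE 0.19, limma, adjusted p = 0.0483). Zfp532 averaged 268 ± 40.8 in KO-labelled and 130 ± 14.9 in WT-labelled libraries (1.03, SE 0.19, adjusted p = 0.0467). With edgeR 0 of the 320 family members it tested were called, and with DESeq2 10 of 335, against 0.370% and 6.61% of all genes. The difference of Zfp286 was 2.48 on the same scale.

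To describe how the 4 genes varied over the libraries, their log2 profiles were centred and compared with 12104 other protein-coding genes of a mean of at least 50 by root mean square difference over the 6 libraries. The genes closest to Gulo were Igfbp2 (0.905), Col9a3 (0.935) and Plagl1 (1.0), against a median of 1.97 over all those genes. Closest to Hsd17b14 were Igfbp2 (0.694), Cubn (0.863) and Hmga2 (0.885), with a median of 1.72. Msrb2 had the closest matches: Fxyd6 (0.190), Sertad4 (0.200) and Tmem45a (0.200), with a median of 0.80. Among the genes closest to Zfp286 were Npy4r (0.440) and Hmga2 (0.471), with a median of 1.27. Since the 4 genes were chosen for their separation of the labels, genes that separate them widely are favoured by this measure. The measure also grows with the size of the differences. Msrb2 had the smallest log2 difference and the most reads of the 4, so its closer matches are no separate trait.

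Among the 4 genes themselves, the profiles of Msrb2 and Zfp286 were the closest and those of Gulo and Msrb2 the farthest apart. The root mean square difference was 0.546 for Msrb2 and Zfp286, 0.754 for Hsd17b14 and Zfp286, 0.839 for Gulo and Zfp286, 1.0 for Hsd17b14 and Msrb2, 1.26 for Gulo and Hsd17b14 and 1.34 for Gulo and Msrb2. Msrb2 differed from Otud1 by 0.536. Igfbp2, which binds insulin-like growth factors, had 364, 750 and 484 normalised reads in KO-labelled libraries and 87.5, 43.3 and 57.1 in WT-labelled libraries. Fxyd6, a regulator of the sodium pump, had 1808, 1422 and 1156 in KO-labelled libraries and 443, 485 and 574 in WT-labelled libraries, with the order of the KO-labelled values differing from that of Msrb2.

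Epcam, which marks the epithelium of the labelled tissue, was abundant in every library, with 29230 to 33565 normalised reads in KO-labelled and 37318 to 42135 in WT-labelled libraries, and cell type marker sums differed between the labels. In bulk tissue, fewer cells of a type and less RNA per cell cannot be told apart. Summed normalised reads of 10 smooth muscle markers were 58928.5, 122134 and 88774 in KO-labelled libraries, against 38141, 39440.5 and 35815 in WT-labelled libraries. All 10 differences were positive, against 51.7% of all tested genes. Limma called 2 higher, against 0.282% of all tested genes. Calls numbered 0 by edgeR and 9 by DESeq2, against 0.370% and 6.61% of all genes in either direction. The limma calls became 9 with scaling to total reads, without KO-labelled library 1 or without both libraries numbered 1, 7 after quantile normalisation, and 0 without KO-labelled library 3 or any WT-labelled library. Scaling to total reads also raised the genes called higher over the whole table from 60 to 310. The smooth muscle sum was highest in KO-labelled library 2, where Gulo was at its highest and Msrb2 and Hsd17b14 at their lowest in that group. Summed epithelial markers were 277923, 446126 and 333228 in KO-labelled libraries and 522487, 456846 and 547440 in WT-labelled libraries, with 11 of 12 differences negative (8 after quantile normalisation) and 0 called by limma (6 at an unadjusted p under 0.05) or edgeR, and 3 by DESeq2. The part of both marker lists in the values of the 4 genes was not tested.

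Since Gulo is known from the liver, hepatocyte markers were also read. Alb had 213, 64.1 and 73.7 normalised reads in KO-labelled libraries and 758, 30.1 and 36.7 in WT-labelled libraries. Alb was highest in the WT-labelled library 1 and did not separate the labels. Ahsg lay between 0 and 2.56 in KO-labelled libraries and between 1.02 and 63.3 in WT-labelled libraries. Summed over the 7 tested hepatocyte markers, normalised reads were 2233, 2079 and 2083 in KO-labelled libraries and 5639, 4986 and 5127 in WT-labelled libraries. Of these markers 2 differences were positive and 5 negative, and their part in the values of Gulo was not tested. Among them 2 were called, both lower: Tat (-1.37 with limma, adjusted p = 0.00359) and Apob (-1.64, adjusted p = 0.00857), of which Apob is also made by enterocytes. Hepatocyte calls numbered 2 with edgeR and 3 with DESeq2, against 0.370% and 6.61% of all genes. With limma they numbered 1 without WT-labelled library 2 and 0 without WT-labelled library 3. The 7 macrophage markers had negative differences (6 of 7 with scaling to total reads), of which limma and edgeR called 0 and DESeq2 4 (6 at an unadjusted limma p under 0.05), with summed counts of 6307 to 8026 in KO-labelled libraries and 9165 to 13020 in WT-labelled libraries. The 7 neuronal and glial markers had positive differences (6 of 7 after quantile normalisation, 5 of 7 without WT-labelled library 1), summing to 980 to 1145 in KO-labelled and 660 to 935 in WT-labelled libraries. Limma, edgeR and DESeq2 called 0 of them. An unadjusted limma p under 0.05 was reached by 1 of the 7, against 19.5% of all tested genes. KO-labelled values lay above all WT-labelled ones in 1 of the 7, against 13.0%. The 5 tested skeletal muscle markers (Myh1, Myh4 and Pvalb were not in the table) summed to 240 to 415 in KO-labelled and 143 to 158 in WT-labelled libraries. Limma called 1 of them, Ckm, higher, and 1 of the 5 had an unadjusted limma p under 0.05. Calls numbered 1 with DESeq2 and 0 with edgeR. The limma call was lost after quantile normalisation and on leaving out KO-labelled library 2 or 3 or any WT-labelled library.

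**Figure D5:**
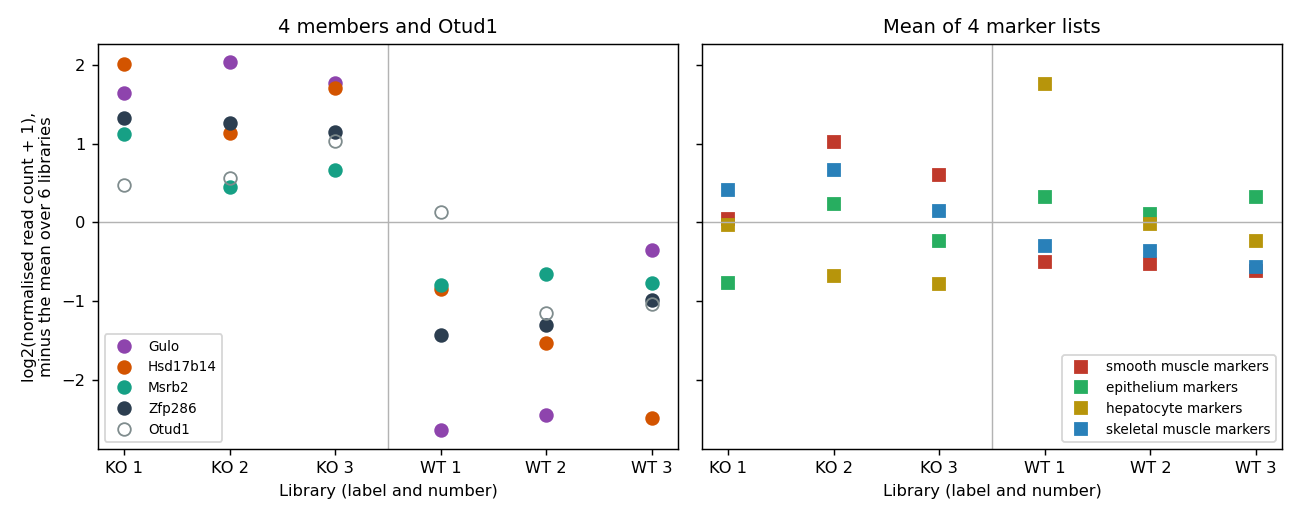
Centred log2(normalised read count + 1) values by library, KO-labelled libraries on the left, for the 4 genes and Otud1 (left panel) and for the mean log2 value of 4 marker lists (right panel). All 4 genes lie above their mean in every KO-labelled library and below it in every WT-labelled one, while the hepatocyte markers are highest in the WT-labelled library 1.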

How the data were processed

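Bulk RNA was measured in 6 libraries, 3 per genotype label. The deposited signal is a normalised read count per gene: the values of a library are multiples of the same step (100% of values, to within 0.001 of a read), so the authors' reads could be recovered by division. Each gene had at least 10 reads in all. Per the submitters' processing notes, reads were placed on mm10. Aligner, counter, strand setting and annotation are not given in the sources used. IDs were matched without version to GENCODE vM21 (GRCm38): 21336 IDs (18829 at an identical version) were found and 38 were not.

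Genes with a value of at least 1 in 3 libraries were tested (21281, with 93 left out) by limma 3.58.1 (R 4.3.3; trend and robust) on log2(value + 1), KO-labelled minus WT-labelled, two-sided, with Benjamini-Hochberg adjustment. Calls were made at adjusted p-values under 0.05. The scale understates changes of genes with few reads. Alternatives were edgeR 4.0.16 (quasi-likelihood) and DESeq2 1.42.0 on those reads, beside other filters, pseudocounts and scalings, the replicate block and the omission of libraries. The code was tested on simulated data. Reads per kilobase used the merged exon length of the annotation and the reads recovered per library. Counting intervals are exact, at 95%.

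The 4 genes and the gene lists were chosen with earlier results of these data known. Named are the 4 genes, Otud1, the called and up to 4 other genes of smallest p per list, the nearest tested neighbours, and the 3 genes of the most similar profile. Family members given by role and cell type markers are named besides, chosen after their values were seen. Not every gene that this rule names is reported here.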

Additional observations from a re-analysis of the deposited data

How the results depend on the processing

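The 202 calls over all genes became 104 with a mean of at least 10, 118 with a pseudocount of 0.1, 413 with scaling to total reads (310 higher and 103 lower, in place of 60 and 142), 0 without trend and robust, 18 with the replicate block, 62 with edgeR, 1412 with DESeq2, and 394 without both libraries numbered 1. Leaving out 1 library gave 10 (without WT-labelled library 3) to 340 (without KO-labelled library 2). The replicate numbers only share a label: deviations of same-numbered libraries correlated at -0.264, -0.100 and -0.0877, so the block is no paired result.

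All 4 genes kept a positive log2 difference in every setting that gave one. Hsd17b14 was 4.72 with a pseudocount of 0.1, 1.83 with 5, 3.91 with edgeR and 4.05 with DESeq2, and had no value with a mean of at least 10 or without both libraries numbered 1. Zfp286 was 2.68, 1.90, 2.67 and 2.69 in the same 4 settings, 2.67 on the total-read scale and 2.30 on the quantile scale. Leaving out 1 library gave 3.20 to 4.35 for Gulo, 2.80 to 3.61 for Hsd17b14, 1.30 to 1.63 for Msrb2 and 2.39 to 2.61 for Zfp286. Otud1 ranged from 1.14 to 1.78, and passed the threshold with DESeq2 (1.29) and without both libraries numbered 1 (1.89).

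The 2 calls in the related lists, and likewise the 2 in the Zfp family, became 0 with a mean of at least 10, a pseudocount of 0.1, quantile normalisation, no trend and robust, the replicate block, and edgeR, and 1 without both libraries numbered 1. DESeq2 called 12 and 10, and scaling to total reads 4 of the Zfp family. Leaving out 1 library gave 0 to 6 list calls and 0 to 1 family calls. In the windows around Gulo, Hsd17b14 and Zfp286, DESeq2 called 2, and leaving out 1 library gave 0 to 1. The window of Otud1 held 0 calls in every setting.

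Among 52 other named genes, 8 of 876 gene and setting pairs turned in direction, none of them called: Pip4k2a (0.17) and Arhgap21 (0.0016) without both libraries numbered 1, Ephx2 (0.0097) and Plekha4 (0.12) with scaling to total reads, and, on leaving out 1 library, 4930426L09Rik (-0.081 to 1.52), Ephx2 (-0.42 to 0.017) and Plekha4 (-0.22 to 0.11). The cause was not tested. Depth limits Hsd17b14 most, with 3 WT-labelled reads in all.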
